A study of Homo sapiens with 15 samples.

Results

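The EGF receptor family and its ligands were described in SCC13 cells, an epidermal squamous cell carcinoma line that served here as a model of tumour keratinocytes. The 10 genes were the receptors EGFR, ERBB2 and ERBB3 and the ligands AREG, EREG, HBEGF, TGFA, BTC, EPGN and NRG1. They were chosen by name from the family, with earlier results of these data known. Of the 20503 genes with a named probe they were 10, and the array carried them on 17 of its 50599 probes, and 15 of these 17 passed the filter on dim probes, among 22685 probes that did. RNA was measured on 15 one-colour Agilent arrays, and all cells were SCC13 cells stably transfected with a plasmid and selected with blasticidine. SCC13-pUNO cells carried the empty control plasmid, and 4 arrays came from these cells untreated and 4 after 24 h with 10 μg/ml of ultrapure LPS, the bacterial ligand of TLR4. SCC13-TLR4 cells carried a plasmid for TLR4 fused to GFP and had been sorted for a high GFP signal, and 3 arrays came from these cells untreated and 4 after the same LPS treatment. The parental line is described as lacking TLR4, so the SCC13-TLR4 cells were an overexpression model of 1 sorted population. Replicates of a line came from 1 transfected population each, so the p-values measure the spread between cultures and not between transfections. In the tests that leave slide out, that spread also holds the difference between the 2 slides that carried the arrays. RNA of whole cultures was measured, so fewer cells that express a gene and less of its RNA per cell cannot be told apart.

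The ligands of this family are made as membrane proteins. Metalloproteases cut them off the cell surface, and the freed ligand binds receptors on the same or on neighbouring cells. EGFR is the receptor of AREG, EREG, HBEGF, TGFA, BTC and EPGN, while NRG1 binds ERBB3. ERBB2 has no ligand of its own and acts as the partner of the others, and ERBB3 has almost no kinase activity and signals through its partner. In the epidermis this loop drives keratinocyte growth, migration and wound closure, and inflammatory signals are known to induce several of the ligands.

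The label of 1 array went against its TLR4 level. Levels are log2 intensities from which the array's own 75th percentile (log2) was subtracted. TLR4 lay between 2.84 and 3.19 on the 7 SCC13-TLR4 arrays and between −6.40 and −3.80 on 7 of the 8 SCC13-pUNO arrays. The array labelled untreated SCC13-pUNO replicate 2 read 3.04. It was kept under its label, and the line differences of the members that it enters are also given without it. The arrays lay on 2 slides, with 8 arrays on slide 1 and 7 on slide 2, and every group had arrays on both. Of the keratinocyte markers, 7 of 8 were well above background on all 15 arrays, among them KRT5 and TP63, while KRT6A was on 7. None of the 4 fibroblast markers was on all arrays and 3 were on no array. PMEL, CDH5, PTPRC and CD79A, which mark melanocytes, endothelial cells and leukocytes, were well above background on all 15 arrays, and the part of such signals in the results was not tested.

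Promoter sequences came from RefSeq (GRCh38.p14), which held an entry for 8 of the 10 genes. Of the ligands, EPGN, EREG, AREG and BTC follow one another on chromosome 4 with no other protein-coding gene between them. The 250 bases before the start of AREG, EREG and EPGN are shown because the genes of these EGFR ligands are neighbours, and those of HBEGF because it was the member gene with the largest line difference over both treatments. Capitals mark the CRE (TGACGTCA) and the TATA box (TATAAA), searched on both strands together with the AP-1 site (TGACTCA or TGAGTCA) and the consensus κB site.
AREG (chr4:74444886-74445135, + strand): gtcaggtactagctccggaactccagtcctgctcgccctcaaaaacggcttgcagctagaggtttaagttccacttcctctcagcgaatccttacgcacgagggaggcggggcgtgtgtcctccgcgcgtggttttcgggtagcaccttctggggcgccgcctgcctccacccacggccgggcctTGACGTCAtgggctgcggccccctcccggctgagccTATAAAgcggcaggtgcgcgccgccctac
EREG (chr4:74364895-74365144, + strand): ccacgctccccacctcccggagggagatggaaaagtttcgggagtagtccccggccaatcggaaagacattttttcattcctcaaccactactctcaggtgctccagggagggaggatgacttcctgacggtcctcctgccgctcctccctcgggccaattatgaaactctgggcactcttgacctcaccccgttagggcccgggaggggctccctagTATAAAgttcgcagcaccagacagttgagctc
EPGN (chr4:74308220-74308469, + strand): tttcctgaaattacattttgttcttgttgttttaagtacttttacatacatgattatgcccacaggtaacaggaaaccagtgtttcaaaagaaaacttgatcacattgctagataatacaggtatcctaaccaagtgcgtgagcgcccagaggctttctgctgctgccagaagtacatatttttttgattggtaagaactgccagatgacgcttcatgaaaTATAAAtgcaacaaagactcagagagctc
HBEGF (chr5:140346604-140346853, − strand): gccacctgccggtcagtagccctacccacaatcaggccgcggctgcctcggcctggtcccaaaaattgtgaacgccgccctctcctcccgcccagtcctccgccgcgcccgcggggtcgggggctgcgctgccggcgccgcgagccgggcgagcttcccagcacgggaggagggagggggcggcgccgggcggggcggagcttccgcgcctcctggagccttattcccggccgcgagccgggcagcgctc
The AREG promoter held a CRE that began 65 bases before the start, a motif found in 1.65% of 35116 promoter windows of this length. A TATA box began 29 bases before the start in AREG and in EPGN and 32 bases before it in EREG, and 3763 of the 35116 windows held one. The HBEGF window held none of the 4 motifs, and 76.4% of its bases were G or C. No AP-1 site, which 4.2% of windows held, and no κB site, which 5.21% held, lay in these 4 windows. Of the member windows searched but not shown, those of BTC and ERBB2 held none of the 4 motifs. EGFR and TGFA each had a window with none as well. Another EGFR window held 2 AP-1 sites and 2 TATA boxes, and another TGFA window held a κB site. These are matches of letters and carry no measurement of binding.

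The receptors were measured first. All 3 were well above background on all 15 arrays. For EGFR, the probe for the full-length transcript (NM_005228) read 0.40, 0.45, 0.27 and 1.43 in untreated SCC13-pUNO cells and 0.50, 1.18 and 1.26 in SCC13-TLR4 cells without treatment. After LPS the values were 0.75, 0.18, 1.33 and 1.44 in SCC13-pUNO cells and 0.51, 0.37, 1.30 and 1.08 in SCC13-TLR4 cells. Every group held low and high arrays, and the groups overlapped. The low values were all from slide 1 and the high values all from slide 2.

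**Figure D1:**
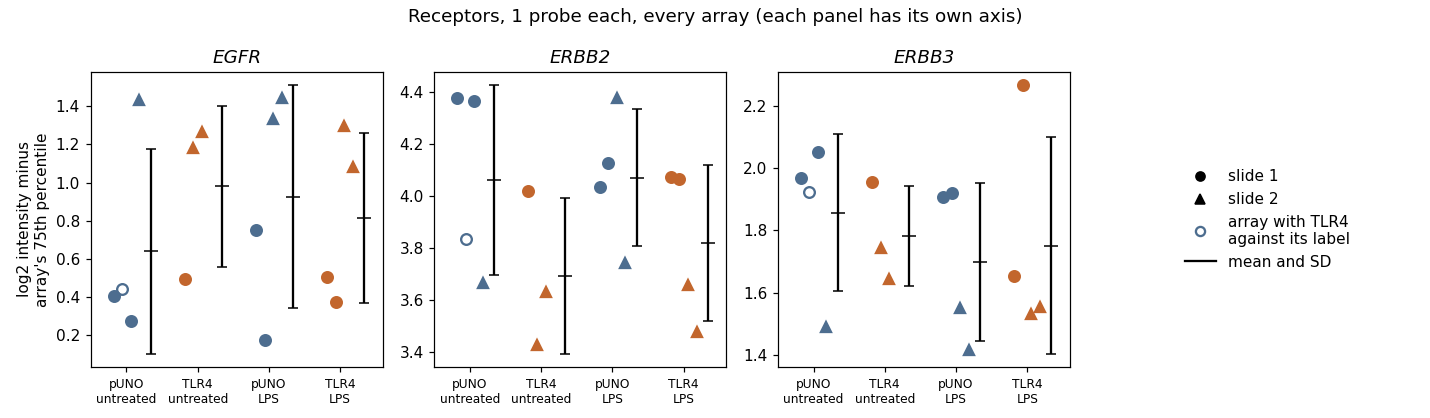
Log2 intensity minus that of the array's 75th percentile for EGFR, ERBB2 and ERBB3 (1 probe each) in the 4 groups; each point is 1 array, its shape shows the slide, the open circle is the array whose TLR4 went against its label, and the bars are the mean and SD. For EGFR the 7 arrays of slide 2 all lie above the 8 arrays of slide 1, whatever the group.

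EGFR was 0.43 ± 0.17 (SD, n = 8) on slide 1 and 1.29 ± 0.13 (SD, n = 7) on slide 2. The difference of 0.86 (SE 0.09, adjusted p = 1.45e-05, limma with slide as a factor) was the largest of the member probes. The other EGFR probes are for the shorter transcripts NM_201283 and NM_201282, which code for truncated forms of the receptor. They differed between slides by −0.09 (SE 0.10, limma adjusted p = 0.496) and −0.27 (SE 0.07, limma adjusted p = 0.0059), so the 3 EGFR probes did not move together. Slide differences were common on these arrays, where 11758 of 22685 probes (51.8%) passed an adjusted p of 0.05 and the median over all probes was −0.13. Of the 15 member probes, 8 passed, 2 of them higher and 6 lower on slide 2. Both NRG1 probes fell by 0.49 and 0.47 on the log2 scale, and the ERBB3 probes A_23_P349416 and A_33_P3211569 fell by 0.41 and 0.53. Of the AREG probes, one rose by 0.67 while the other, used for AREG below, differed by −0.08 (SE 0.10, limma adjusted p = 0.528). Slide and line could be separated, since each slide held arrays of every group. Values within slides are therefore given for the members on which the comparison turned. In untreated cells each line difference within a slide rests on 1 array of 1 of the lines. That of slide 1 includes the doubtful array.

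**Figure D2:**
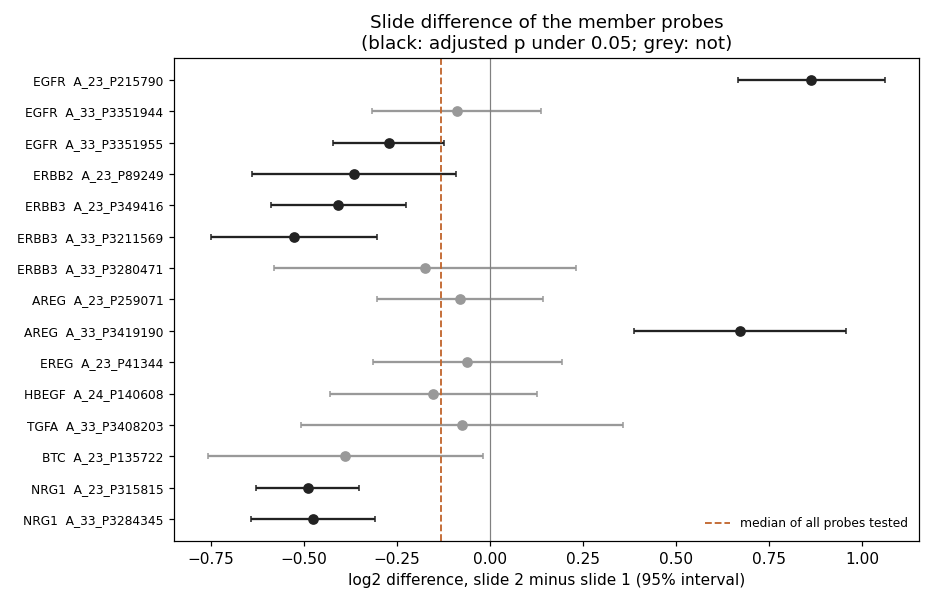
Difference between the slides (slide 2 minus slide 1, log2) of the 15 member probes tested, with 95% intervals from limma; black points passed an adjusted p of 0.05 and the dashed line is the median of all 22685 probes, −0.13. EGFR A_23_P215790 at 0.86 and AREG A_33_P3419190 at 0.67 lie on the opposite side of 0 from most members.

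ERBB2, the partner receptor, was printed on 10 spots of each array and read 4.38, 3.83, 4.37 and 3.67 in untreated SCC13-pUNO cells and 4.02, 3.43 and 3.63 in SCC13-TLR4 cells without treatment. LPS-treated cultures gave 4.04, 4.13, 4.38 and 3.74 in SCC13-pUNO cells and 4.07, 4.07, 3.66 and 3.48 in SCC13-TLR4 cells. The SCC13-TLR4 values tended to the lower end, and the groups overlapped in both treatments. Over both treatments ERBB2 differed by −0.31 between SCC13-TLR4 and SCC13-pUNO cells (SE 0.16, 95% interval −0.64 to 0.02), with SCC13-TLR4 higher in 11 of 56 pairs of arrays (two-sided exact permutation p = 0.0743). Without the doubtful array it was −0.35 (exact permutation p = 0.07). The difference without LPS was −0.17 within slide 1 and −0.14 within slide 2, and that with LPS was −0.01 and −0.49. With slide as a factor and without the doubtful array it was −0.28 (95% interval −0.54 to −0.02, limma adjusted p = 0.422).

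ERBB3, the receptor of NRG1, read 1.97, 1.92, 2.05 and 1.49 in SCC13-pUNO cells without LPS, and 1.96, 1.74 and 1.64 in SCC13-TLR4 cells without treatment. Cultures given LPS read 1.91, 1.92, 1.55 and 1.42 in SCC13-pUNO cells, and 1.65, 2.27, 1.53 and 1.55 in SCC13-TLR4 cells. For the lines, ERBB3 differed by −0.08 in untreated cells (95% interval −0.51 to 0.36) and 0.05 with LPS (95% interval −0.35 to 0.45), both smaller than the SD within a group. The untreated value was −0.05 without the doubtful array. By its probe for the full-length transcript, EGFR differed by 0.34 in untreated cells (95% interval −0.43 to 1.12) and by −0.11 with LPS (95% interval −0.83 to 0.61). The untreated EGFR value was 0.28 without the doubtful array, 0.61 without SCC13-pUNO replicate 4 and 0.20 without SCC13-TLR4 replicate 3, both of slide 2. With slide as a factor and without the doubtful array these intervals narrowed to −0.33 to 0.31 and −0.38 to 0.16, around differences of −0.01 and −0.11. In this fit a line difference of EGFR above 0.33 in size, on this probe, lay outside the 95% interval in untreated cells. The EGFR probes for the shorter transcripts, in the order named above, differed by −0.06 and −0.23 in untreated cells over all arrays. Without the doubtful array these were −0.10 and −0.23, and with LPS the differences were 0.01 and −0.02. The sign in untreated cells was thus not the same on all EGFR probes.

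The ligands of EGFR were measured next. HBEGF, the heparin-binding ligand, was a dim probe, with a median intensity of 30.7 over the 15 arrays, and was well above background on 13 of them. These were 3 of 4 arrays in each SCC13-pUNO group and all arrays of both SCC13-TLR4 groups. HBEGF therefore passed the filter on dim probes only through the groups where it was higher, so its test values below are a description. It read −3.95, −3.44, −3.46 and −3.71 in untreated SCC13-pUNO cells and −3.27, −3.07 and −3.08 in SCC13-TLR4 cells without treatment. Under LPS it read −3.54, −3.51, −4.21 and −3.58 in SCC13-pUNO cells and −3.08, −3.20, −3.59 and −3.12 in SCC13-TLR4 cells. In untreated cells all SCC13-TLR4 values lay above all SCC13-pUNO values, and with LPS the groups overlapped through 1 SCC13-TLR4 array. Over both treatments HBEGF was higher in SCC13-TLR4 cells by 0.48 (SE 0.13, 95% interval 0.20 to 0.76) and in 51 of 56 pairs of arrays (two-sided exact permutation p = 0.00327, permuted within each treatment). Across all probes it did not pass (limma adjusted p = 0.834). Without the doubtful array it was 0.51 (exact permutation p = 0.00571).

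In untreated cells the HBEGF difference was 0.50 (SE 0.19, two-sided exact permutation p = 0.0286, the smallest that 4 arrays against 3 allow). It was 0.35 within slide 1 and 0.63 within slide 2, each resting on 1 array of 1 of the lines. Without the doubtful array it was 0.57, with SCC13-TLR4 higher in 9 of 9 pairs (exact permutation p = 0.1, the smallest that 3 against 3 allow). With LPS the difference was 0.46 (SE 0.18, exact permutation p = 0.114), 0.38 within slide 1 and 0.54 within slide 2. It was 0.29 without LPS-treated SCC13-pUNO replicate 3, whose HBEGF spot was not well above background. With slide as a factor and without the doubtful array, the difference over both treatments was 0.54 (95% interval 0.25 to 0.83, limma adjusted p = 0.22). Under normexp background correction, which adds an offset of 50 intensity units to every spot, the HBEGF difference was smaller, at 0.15 in untreated cells, 0.01 with LPS and 0.08 over both treatments. This correction changes the background and adds the offset together, and the cause of the smaller difference was not tested.

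AREG, amphiregulin, read 0.50, 0.77, 0.72 and 0.07 in untreated SCC13-pUNO cells and 0.45, 0.63 and 0.68 in SCC13-TLR4 cells without treatment. The LPS-treated arrays read 0.39, 0.18, 0.46 and 0.33 in SCC13-pUNO cells and 0.55, 0.73, 0.55 and 0.58 in SCC13-TLR4 cells. The untreated groups overlapped, whereas with LPS all SCC13-TLR4 values lay above all SCC13-pUNO values. With LPS the difference was 0.26 (SE 0.14, two-sided exact permutation p = 0.0286, the smallest that 4 against 4 allow), 0.35 within slide 1 and 0.17 within slide 2. It did not pass across all probes (limma adjusted p = 1). The probe was well above background on all arrays, with a median intensity of 447.6, and the difference was 0.26 under normexp correction as well. The other AREG probe differed by 0.48 with LPS, higher in 13 of 16 pairs (two-sided exact permutation p = 0.171). In untreated cells AREG differed by 0.08 (95% interval −0.25 to 0.40), and within slides by −0.21 and 0.59. It was 0.16 without the doubtful array and −0.07 without untreated SCC13-pUNO replicate 4. Over both treatments AREG differed by 0.17 (SE 0.10, exact permutation p = 0.124), by 0.21 without the doubtful array (exact permutation p = 0.0471), and by 0.09 without untreated SCC13-pUNO replicate 4.

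**Figure D3:**
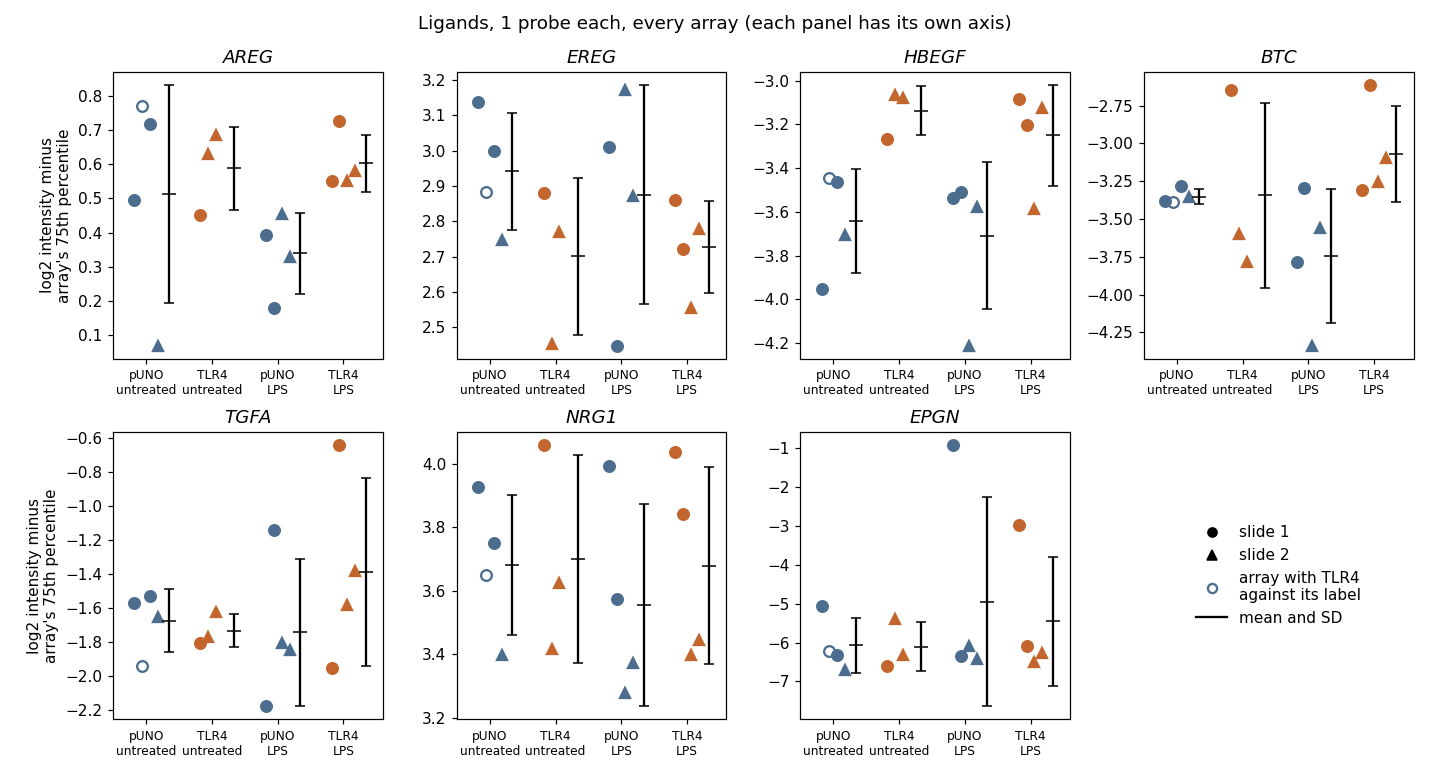
Log2 intensity minus that of the array's 75th percentile for the 7 ligands (1 probe each) in the 4 groups; each point is 1 array, its shape shows the slide, the open circle is the array whose TLR4 went against its label, and the bars are the mean and SD. HBEGF separates the lines in untreated cells and AREG with LPS, and EPGN lies between −6.71 and −5.05 apart from 1 LPS-treated array of each line, at −0.93 and −2.98.

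EREG, epiregulin, whose gene lies next to AREG, read 3.14, 2.88, 3.00 and 2.75 in SCC13-pUNO cells without LPS, and 2.88, 2.45 and 2.77 in SCC13-TLR4 cells without treatment. Values after 24 h of LPS were 3.01, 2.45, 3.17 and 2.87 in SCC13-pUNO cells, and 2.86, 2.72, 2.55 and 2.78 in SCC13-TLR4 cells. The groups overlapped in both treatments, and over both the difference was −0.19 (SE 0.11, 95% interval −0.44 to 0.05, exact permutation p = 0.0959). SCC13-TLR4 was higher in 12 of 56 pairs of arrays. Without the doubtful array the difference was −0.20 (exact permutation p = 0.113). The signs of the EREG and AREG differences were opposite, and the difference between them was not tested.

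BTC, betacellulin, had a median intensity of 29.1 and was well above background on 14 arrays. It read −3.38, −3.39, −3.28 and −3.35 in untreated SCC13-pUNO cells and −2.64, −3.60 and −3.79 in SCC13-TLR4 cells without treatment. In cultures given LPS it stood at −3.78, −3.29, −4.34 and −3.56 in SCC13-pUNO cells and −3.31, −2.61, −3.26 and −3.10 in SCC13-TLR4 cells. The untreated values of the lines overlapped, and with LPS they overlapped in 1 of 16 pairs of arrays. With LPS the difference was 0.68 (SE 0.26, 95% interval 0.12 to 1.23, exact permutation p = 0.0571), 0.58 within slide 1 and 0.77 within slide 2. Under normexp correction it was −0.001. In untreated cells it was 0.01, with 0.71 within slide 1 and −0.34 within slide 2, and −0.0023 without the doubtful array.

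TGFA, transforming growth factor α, read between −1.94 and −1.53 in SCC13-pUNO cells and between −1.80 and −1.62 in SCC13-TLR4 cells, both without LPS. The readings with LPS were −2.18, −1.14, −1.80 and −1.85 in SCC13-pUNO cells and −1.95, −0.64, −1.58 and −1.38 in SCC13-TLR4 cells. In each line replicate 2 was the highest LPS-treated array and replicate 1 the lowest, and SCC13-TLR4 was above SCC13-pUNO at each of the 4 replicate numbers. The line difference was −0.06 in untreated cells (95% interval −0.65 to 0.53) and 0.35 with LPS (95% interval −0.20 to 0.90, exact permutation p = 0.4). Without the doubtful array the untreated value was −0.15, with SCC13-TLR4 higher in 1 of 9 pairs (exact permutation p = 0.2). The value with LPS was 0.10 without LPS-treated SCC13-TLR4 replicate 2 and 0.55 without SCC13-pUNO replicate 2. Within same-numbered pairs it ran from 0.22 to 0.50, and with these pairs as a block it had a 95% interval of 0.10 to 0.60 (limma adjusted p = 0.9). The second TGFA probe was well above background on 7 arrays and was not tested. EPGN, epigen, was well above background on 2 of 15 arrays. These were 1 LPS-treated SCC13-pUNO array at −0.93 and 1 LPS-treated SCC13-TLR4 array at −2.98, while the other 13 arrays lay between −6.71 and −5.05. EPGN was therefore not tested.

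NRG1, neuregulin 1, the ligand of ERBB3, was bright, with a median intensity of 4170 for the probe used. It read 3.93, 3.65, 3.75 and 3.40 in untreated SCC13-pUNO cells and 4.06, 3.42 and 3.63 in SCC13-TLR4 cells without treatment. LPS-treated arrays gave 3.99, 3.58, 3.28 and 3.37 in SCC13-pUNO cells and 4.04, 3.84, 3.40 and 3.44 in SCC13-TLR4 cells. The groups overlapped, and replicate 1, which lay on slide 1, was the highest array of every group. The line differences were 0.02 in untreated cells (95% interval −0.45 to 0.49) and 0.12 with LPS (95% interval −0.31 to 0.56). The untreated value was 0.0083 without the doubtful array, and that with LPS was 0.0060 without LPS-treated SCC13-TLR4 replicate 1. With slide as a factor and without the doubtful array they were 0.17 (95% interval −0.08 to 0.42) and 0.12 (95% interval −0.09 to 0.34).

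**Figure D4:**
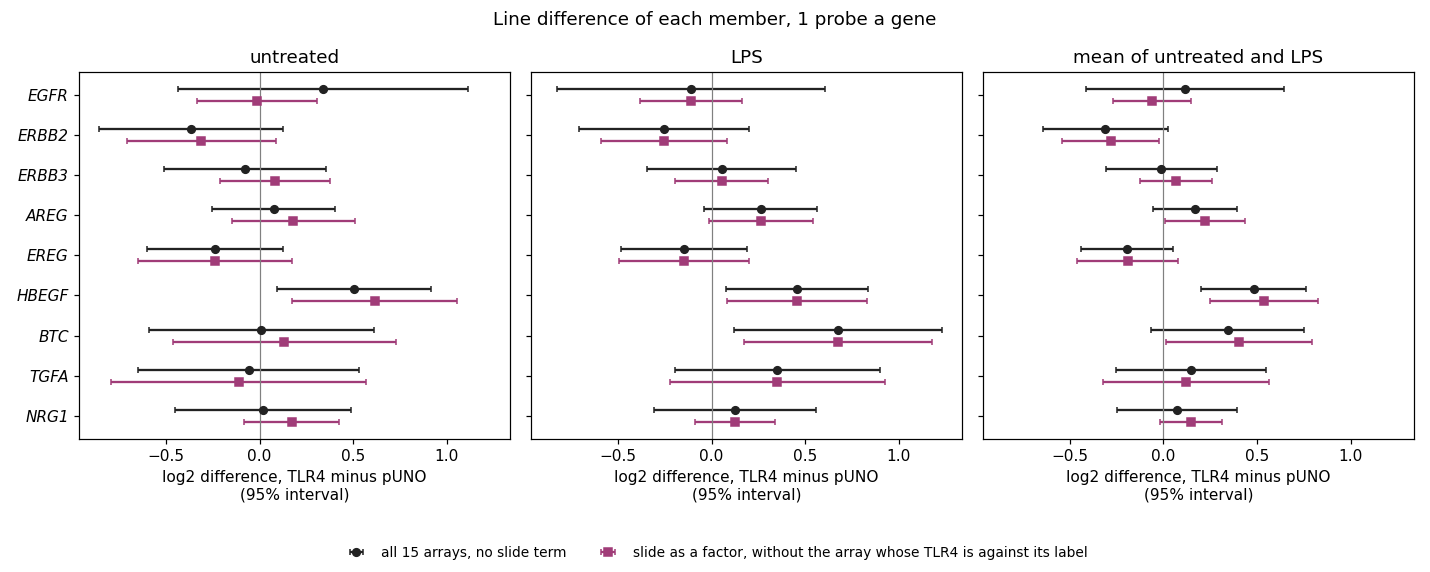
Difference between SCC13-TLR4 and SCC13-pUNO cells (log2, with 95% intervals from limma) of the 9 members tested, in untreated cells, with LPS and over both treatments; black circles are the fit of all 15 arrays and squares the fit with slide as a factor and without the array whose TLR4 went against its label. HBEGF is at 0.48 and 0.54 over both treatments, with intervals above 0 in each panel, and the EGFR intervals are the ones that narrow most with slide in the fit.

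Counted over all member probes, none of the 15 passed an adjusted p of 0.05 in any of the 3 line comparisons (limma). In untreated cells none of the 22685 probes did either (0%), and 1 member probe (HBEGF) of 15 had an unadjusted p under 0.05, beside 2.5% of all probes. With LPS the share of all probes past the adjusted threshold was 0% too, and 2 member probes (HBEGF and BTC) had an unadjusted p under 0.05, beside 2.72% of all probes. Over both treatments 5 of all probes passed (0.022%), and 1 member probe (HBEGF) had an unadjusted p under 0.05, beside 4.33% of all probes. The groups did not overlap for 1 member probe in untreated cells (HBEGF), where this held for 3.73% of all probes, or 7.24% without the doubtful array. With LPS it was 1 member probe as well (AREG), beside 1.29% of all probes. HBEGF entered these counts, and those below, only through the SCC13-TLR4 groups, where it was higher. The median difference of the 15 member probes was −0.02, 0.07 and 0.09 in the 3 comparisons, beside −0.02, −0.01 and −0.01 over all probes.

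The comparison of the lines with LPS was also paired by replicate number, since its 4 same-numbered pairs each shared a slide and deviated together (r = 0.38 to 0.62). Over all groups, the 15 same-numbered pairs on 1 slide had r over 0.1, and the 6 pairs on different slides were below 0. A shared number and a shared slide were therefore not told apart. In a fit of these 8 arrays with the pairs as a block, chosen after the data were seen, no member probe passed the adjusted threshold (limma), beside 0.0176% of all probes. At an unadjusted p under 0.05 there were 4 member probes, beside 5.02% of all probes. These were HBEGF (95% interval 0.22 to 0.70), BTC (95% interval 0.34 to 1.01), TGFA and the AREG probe A_33_P3419190 (0.48, 95% interval 0.18 to 0.78). Each was higher in SCC13-TLR4 cells in 4 of 4 pairs, as were the other AREG probe and both NRG1 probes. The smallest p that an exact test of the signs of 4 pairs can give is 0.125. The share of all probes with 4 of 4 pairs in 1 direction is not given here. Some of these member probes also measure the same gene, so the count is a description.

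With slide as a factor and without the doubtful array, 11 of all probes passed the adjusted threshold in untreated cells (0.0485%), 22 with LPS (0.097%) and 49 over both treatments (0.216%), and no member probe was among them. At an unadjusted p under 0.05 there were 1 member probe in untreated cells, beside 5.75% of all probes, and 4 with LPS, beside 6.44%. Over both treatments there were 6 member probes, or 40% of the 15, beside 11.2% of all probes. These 6 were HBEGF, BTC, both AREG probes and the NRG1 probe A_23_P315815, which were higher in SCC13-TLR4 cells, and ERBB2, which was lower. The AREG probes measure the same gene, and ligands that share arrays are not independent, so the count is a description.

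LPS was then compared with no treatment within each line. In SCC13-pUNO cells no member probe and none of all probes passed the adjusted threshold (0%, limma), and no member probe had an unadjusted p under 0.05, beside 2.48% of all probes. In SCC13-TLR4 cells the member counts were 0 as well, with 0% of all probes past the adjusted threshold and 1.33% at an unadjusted p under 0.05. The groups overlapped for all 15 member probes in both lines, where 1.27% and 1.79% of all probes did not overlap. Over the 9 genes tested, the differences with LPS ran from −0.39 to 0.29 in SCC13-pUNO cells and from −0.17 to 0.34 in SCC13-TLR4 cells. The ends 0.29 and −0.17 were both EGFR, which was 0.07 and −0.02 with slide as a factor. Without the doubtful array the range in SCC13-pUNO cells was −0.41 to 0.22. The largest was that of BTC in SCC13-pUNO cells, at −0.39 (95% interval −0.95 to 0.16), and that of TGFA in SCC13-TLR4 cells, at 0.34 (95% interval −0.25 to 0.93). The BTC value was −0.20 without LPS-treated SCC13-pUNO replicate 3, and the TGFA value was 0.09 without LPS-treated SCC13-TLR4 replicate 2 and 0.53 without replicate 1. For HBEGF they were −0.07 (95% interval −0.45 to 0.31) and −0.11 (95% interval −0.52 to 0.30). For the difference between the lines in the response to LPS, no member probe passed either, with 0% of all probes past the adjusted threshold and 1.32% at an unadjusted p under 0.05. Its largest value was that of BTC, 0.67 (95% interval −0.15 to 1.49), which was 0.68 without the doubtful array and 1.02 without untreated SCC13-TLR4 replicate 1. The time was 24 h, and earlier times were not analysed here.

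Members were also compared with each other over the 15 arrays after the mean of each slide was taken off, as a description, since the arrays share slides and groups. ERBB2 and HBEGF ran in opposite directions (Pearson's r = −0.78, n = 15), and ERBB2 and EREG ran together (r = 0.64, n = 15). Within slide 1 these were −0.53 and 0.33 (n = 8), and within slide 2 they were −0.89 and 0.85 (n = 7). On slide 2, LPS-treated SCC13-pUNO replicate 3 had the highest ERBB2 and EREG and the lowest HBEGF, which was not well above background there. The part of this array in the correlations was not tested. The 2 NRG1 probes correlated at r = 0.80 and the 2 AREG probes at r = 0.64, whereas the EGFR probe for the full-length transcript correlated with the others at r = 0.26 and −0.04, and the ERBB3 probe used here with its others at r = −0.20 and −0.46. The genes most like EGFR in this measure were PRR13 (r = 0.94), NSUN4 (r = 0.87) and UGGT2 (r = 0.87). Those most like AREG were PPP3CB (r = 0.87), FXR1 (r = 0.83) and SLF2 (r = 0.83), and those most like HBEGF were TCP11L2 (r = 0.94), RMP64 (r = 0.93) and RAC2 (r = 0.91), each out of 17026 to 17028 named probes over 15 arrays.

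The rest of the pathway was read from a list of 53 genes, of which 46 were tested. ERBB4, the fourth receptor, and the ligands EGF, NRG2 and NRG3 were not well above background on any array, nor were the probes of the sheddase ADAM9, the adaptor GAB1 and PTGS2, the inducible prostaglandin synthase. None of the 46 passed an adjusted p of 0.05 in any of the 6 comparisons (limma). In the 3 line comparisons none had an unadjusted p under 0.05 either, and the median difference over both treatments was 0.01, beside −0.01 over all probes. By role, the difference over both treatments was above 0 for 2 of 5 sheddases and their carriers, 10 of 17 adaptors and signal carriers, 9 of 14 feedback inhibitors and 7 of 9 targets. Slide 2 was higher than slide 1 for 6 of the 46 and lower for 21 (limma adjusted p under 0.05), beside 51.8% of all probes that differed. In the fit with slide as a factor and without the doubtful array, the line difference over both treatments was above 0 for 33 of 46. Its median was 0.07 beside 0.01 over all probes. By role it was above 0 for 2 of 5 sheddases, 16 of 17 adaptors, 8 of 14 feedback inhibitors and 7 of 9 targets. The adaptor median was 0.05. Adaptors above 0 were 15 of 17 in untreated cells and 11 of 17 with LPS in this fit. In the fit of all 15 arrays without slide they were 4 and 11 of 17. The share of all probes above 0 is not given here, so these counts are a description. None of the 46 passed the adjusted threshold in this fit, and 4 had an unadjusted p under 0.05, beside 11.2% of all probes. SPRED2 differed by 0.31 (95% interval 0.10 to 0.52), SPRY4 by 0.23 (95% interval 0.07 to 0.40) and IER3 by 0.22 (95% interval 0.02 to 0.42), while SOCS5 differed by −0.18 (95% interval −0.36 to −0.0044). The same fit gave 2 such genes in untreated cells, beside 5.75% of all probes, and none with LPS, beside 6.44%.

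**Figure D5:**
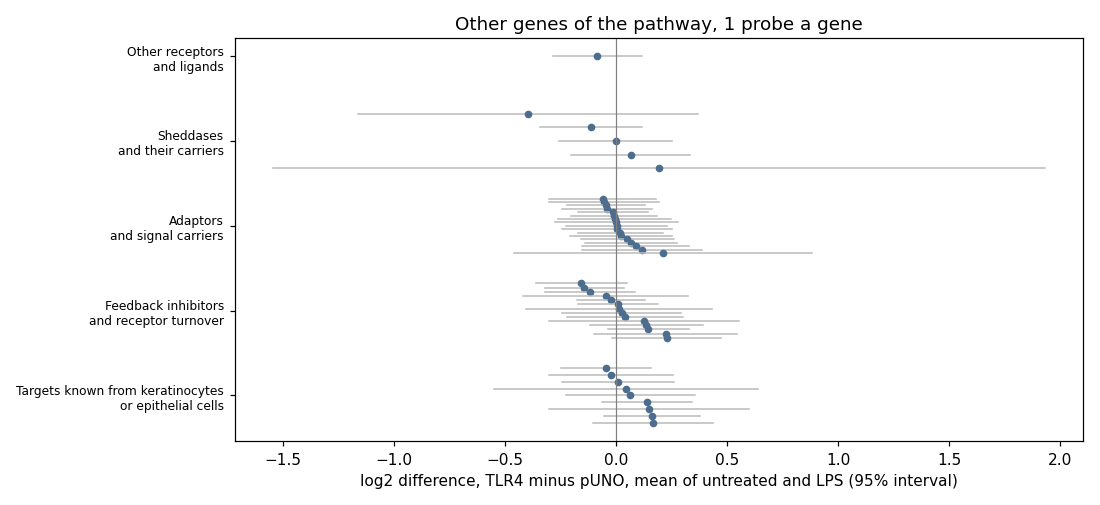
Difference between SCC13-TLR4 and SCC13-pUNO cells over both treatments (log2, points) with 95% intervals (lines) of the 46 other pathway genes tested, grouped by role. In this fit of all 15 arrays the intervals include 0, and the points lie between −0.40 and 0.23.

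The 10 pathway genes with the smallest p over both treatments, in the fit of all 15 arrays with the doubtful one included, differed as follows. SPRED2, which restrains RAS to ERK signalling, differed by 0.23 (SE 0.11, exact permutation p = 0.0616), and CBL, which tags EGFR for degradation, by 0.15 (SE 0.08, exact permutation p = 0.06). SOCS4 and SOCS5, which lower EGFR levels, differed by −0.14 and −0.16 (exact permutation p = 0.0465 and 0.0747). SPRY1, SPRY2 and SPRY4, inhibitors of receptor tyrosine kinase signalling, differed by 0.22, −0.12 and 0.14. The ERK-induced genes IER3 and FOSL1 differed by 0.16 and 0.14, and HAS3, a hyaluronan synthase that EGFR ligands induce in keratinocytes, by 0.17. All 10 had a limma adjusted p of 0.996, and for all 10 the lines overlapped in both treatments.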

How the data were processed

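Total RNA of 15 SCC13 cultures was measured on one-colour Agilent 8x60K arrays. Per the file headers, the authors made the intensities with Agilent's Feature Extraction software, with background subtraction and spatial detrending, and deposited them on a linear scale with no scaling from one array to another. The software's flags were used as deposited. Here, outlier-marked spots were left out, each array's 75th percentile (192 to 420) was subtracted on the log2 scale, and spots of a probe were averaged. A probe entered the tests if all arrays of 1 group or more marked it as well above background, which kept 22685 of 50599 probes. Probes were named by accession through RefSeq.

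The fit used limma 3.58.1 in R 4.3.3 over all 15 arrays, with a mean per group, Benjamini-Hochberg adjustment and a threshold of 0.05. Single genes were compared by two-sided exact permutation tests. Each gene is given by the probe well above background on most arrays, the brightest where several tied, with its other probes where named. Named were all members, TLR4, markers, the 10 pathway genes with the smallest p over both treatments, and the 3 genes most like EGFR, AREG and HBEGF. The members and lists were chosen with earlier results of these data known. Normexp correction, quantile normalization, filters, slide, replicate block, array weights and leaving out arrays were tried. The scripts were tested on simulated data. Pairs by replicate number were compared only between the LPS-treated lines (r = 0.38 to 0.62 in 4 of 4 pairs, each on 1 slide). This pairing was taken from the data and not from the labels, and a shared number was not told apart from a shared slide. The number of arrays limits the precision.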

Additional observations from a re-analysis of the deposited data

Results flagged for a closer look

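Of 51 groups of 4 arrays checked, 8 held 1 array far from the other 3, where the nominal rate of the rule is 1 in 20, or 2.55. That rate holds for 4 independent values of 1 population. These groups mix the 2 slides, and some probes measure the same gene. The share of all probes marked by this rule is not given here, so the count is a description and not a result about the members. EGFR was 1.43 on untreated SCC13-pUNO replicate 4 and 0.27 to 0.45 on the others, and this array was the only one of its group on slide 2. ERBB3 was 2.27 on LPS-treated SCC13-TLR4 replicate 2 (others 1.53 to 1.65), and its probe A_33_P3211569 was 1.81 on LPS-treated SCC13-pUNO replicate 1 (others 1.24 to 1.33). AREG was 0.73 on LPS-treated SCC13-TLR4 replicate 2 (others 0.55 to 0.58). HBEGF was −4.21 on LPS-treated SCC13-pUNO replicate 3 (others −3.58 to −3.51), where it was not well above background. The TGFA probe A_23_P377291 was −3.66 on untreated SCC13-pUNO replicate 3 (others −4.24 to −4.16). EPGN was −0.93 on LPS-treated SCC13-pUNO replicate 1 (others −6.43 to −6.08) and −2.98 on LPS-treated SCC13-TLR4 replicate 1 (others −6.50 to −6.08). These are values of single spots on single arrays, and their cause was not tested.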

How the results depend on the processing

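No member probe passed an adjusted p of 0.05 in any of the 6 comparisons under any alternative run (limma), so the changes below concern single genes that were not called, as log2 differences, and the cause was not tested. With slide as a factor, EGFR became −0.018 in untreated cells and −0.065 over both treatments, and ERBB3 0.093 and 0.073. With the doubtful array left out as well, EGFR was −0.012 and −0.061, and ERBB3 0.082 and 0.068. Within slide 1, untreated AREG was −0.21 and BTC 0.71, and EREG with LPS was 0.061. Within slide 2, untreated EGFR was −0.21, ERBB3 0.20, AREG 0.59 and BTC −0.34. Under normexp correction, ERBB3 over both treatments was 0.026, BTC was −0.00102 with LPS, its LPS difference in SCC13-pUNO cells 0.10, and its difference between responses −0.022. Under quantile normalization, ERBB3 over both treatments was 0.022 and untreated BTC −0.12. With array weights, NRG1 was −0.18 untreated and −0.021 over both treatments, and untreated BTC −0.30. With all probes of a gene averaged, EGFR over both treatments was −0.012 and untreated NRG1 −0.000738.

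With each array left out in turn, untreated AREG ran from −0.073 to 0.16, BTC from −0.34 to 0.23 and NRG1 from −0.16 to 0.16. With LPS, EGFR ran from −0.36 to 0.061 and ERBB3 from −0.12 to 0.13. Over both treatments EGFR ran from −0.0096 to 0.25, ERBB3 from −0.097 to 0.026 and NRG1 from −0.018 to 0.15.

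Of 21 pairs of arrays with the same replicate number, 15 had deviations that correlated over 0.1 and 6 were below 0, and all 4 pairs of the lines with LPS were over 0.1. The 15 pairs each shared a slide and the 6 did not, so number and slide were not told apart. With the replicate block no member probe passed in any comparison, and untreated NRG1 was −0.059. At an unadjusted p under 0.05 (limma) the block in all 15 arrays gave 3 member probes in untreated cells, 2 with LPS and 3 over both treatments. Without the block these were 1, 2 and 1, beside 2.5%, 2.72% and 4.33% of all probes. The share of all probes with the block in all 15 arrays is not given here. The change in these counts is therefore not a result about the members. The block in the LPS arrays alone gave 4, beside 5.02% of all probes. HBEGF and BTC lie near the background, where normexp correction changed their differences, and EPGN was well above background on too few arrays to be compared.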
